A study of Arabidopsis thaliana with 18 samples.

Results

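The 8 genes described here encode the plastid fatty acid synthase core enzymes of Arabidopsis thaliana. They were chosen by function and locus identifier and not by a rule on measured values, but with earlier results of these data known. They are MCAMT (AT2G30200), KASIII (AT1G62640), KASI (AT5G46290), KASII (AT1G74960), KAR (AT1G24360), the HAD genes AT2G22230 and AT5G10160, and the enoyl reductase gene MOD1 (AT2G05990). They are 8 of 33602 genes in one deposited table and 8 of 33201 loci in the other, and all 8 were measured and tested in both. With libraries scaled by TMM factors, no member passed the test in any comparison of the full sets of libraries. With library totals alone, some members passed as lower in the tr groups described below. In each of these tr groups, the same library was the lowest of its group for all 8 genes after TMM scaling.

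Plant fatty acids are built in the plastid by separate soluble enzymes and not by a single large protein. Acetyl-CoA carboxylase makes malonyl-CoA, and the malonyl transferase MCAMT passes the malonyl group to an acyl carrier protein (ACP). KASIII joins acetyl-CoA to malonyl-ACP in the first condensation, KASI carries out the later condensations up to palmitoyl-ACP, and KASII extends palmitoyl-ACP to stearoyl-ACP. After each condensation a ketoacyl reductase (KAR), a hydroxyacyl dehydratase (HAD) and an enoyl reductase (MOD1) turn the keto group into a saturated carbon. In developing seeds this pathway supplies the acyl chains of storage oil, and many of its genes are targets of the transcription factor WRINKLED1 (WRI1).

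Developing seeds of wild type and of a badc1/badc3 double T-DNA knockout were harvested 9 to 10 days after flowering, from plants kept under 16 h days, for sequencing of polyA RNA. BADC1 and BADC3 are noncatalytic relatives of the biotin carrier subunit of plastid acetyl-CoA carboxylase, and the study asked about the metabolic consequences of the raised oil content of this mutant. The first set holds COL0 (wild type) and badc-tdna13 (double knockout), and the second set holds AtWT (wild type), AtBD (double knockout), AtWTtr (wild type) and AtBDtr (double knockout), with 3 libraries in each of the 6 groups. The study also transformed wild type and mutant with an epitope-tagged ribosomal protein, HF-RPL18, under a soybean glycinin promoter, which is a seed storage protein promoter, to enrich ribosome-associated RNA, but no label states what "tr" stands for. These libraries are therefore called tr libraries, and whether they carry only RNA from cells in which that promoter is active cannot be read from the labels. No label says that the libraries of a group came from separate plants, so the p-values measure the spread between these samples, which may be technical.

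Library totals were 16977673 to 32547007 counts in the second set and 9546528 to 11574156 fragments in the first. BADC3 (AT3G15690) had 82.1, 67.6 and 67.7 CPM (counts scaled to library size with TMM factors) in AtWT and 0.154, 0.0792 and 0.697 in AtBD, and 88.6, 91.4 and 64.6 in COL0 against 6.90, 3.32 and 64.6 in badc-tdna13 replicates 0, 1 and 2. The library labelled badc-tdna13 replicate 2 thus goes against its label, and its rounded fragments equal those of COL0 replicate 2 at 17287 of the 17287 loci compared. Results of the first set are therefore given with and without both of these libraries. The tr libraries differed widely from the others in their RNA makeup. The summed level of 6 storage and oil body genes was 66945 to 111581 CPM in AtWT and AtBD and 216887 to 359944 CPM in the tr groups, and that of 4 seed coat genes 258.8 to 899 against 31.5 to 57.8 CPM.

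Compared per length, as FPKM (fragments scaled to transcript length and library size) within a library, MOD1 and KAR had the highest transcript levels in 12 of the 18 libraries and KASIII had the lowest in all 18. In the others KASI ranked first (AtWTtr replicate 3) or after MOD1 (all 3 AtBDtr libraries), or KASII ranked after KAR (replicate 2 of COL0 and of badc-tdna13). In AtWT the levels were 185 ± 34.1 FPKM for KAR, 183 ± 13.5 for MOD1, 128 ± 12.3 for KASI, 108 ± 5.21 for HAD AT5G10160, 90.8 ± 7.41 for KASII, 78.3 ± 10.9 for HAD AT2G22230, 55.7 ± 2.83 for MCAMT and 34.1 ± 2.59 for KASIII (SD, n = 3). KAR and MOD1 did not differ beyond their spread, while KASIII and MCAMT stood apart from each other and from the rest. The SD ranges of KASII and HAD AT2G22230 overlapped, but KASII was the higher of them in each AtWT library. It had 96.7, 93.2 and 82.5 FPKM there against 88.4, 79.9 and 66.8 for HAD AT2G22230. MCAMT ranked 7 of the 8 genes in all but AtBDtr replicate 1, where HAD AT5G10160 was lower. In the tr groups KASI had a larger part of the summed FPKM of the 8 genes, 18.8% in AtWTtr and 19.2% in AtBDtr against 14.9% in AtWT and 14.9% in AtBD, and HAD AT5G10160 a smaller one, 8.38% and 7.86% against 12.5% and 11.1%. These per-length values were computed from the counts in the second set and are the authors' FPKM in the first, so the sets are not compared with each other.

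**Figure D1:**
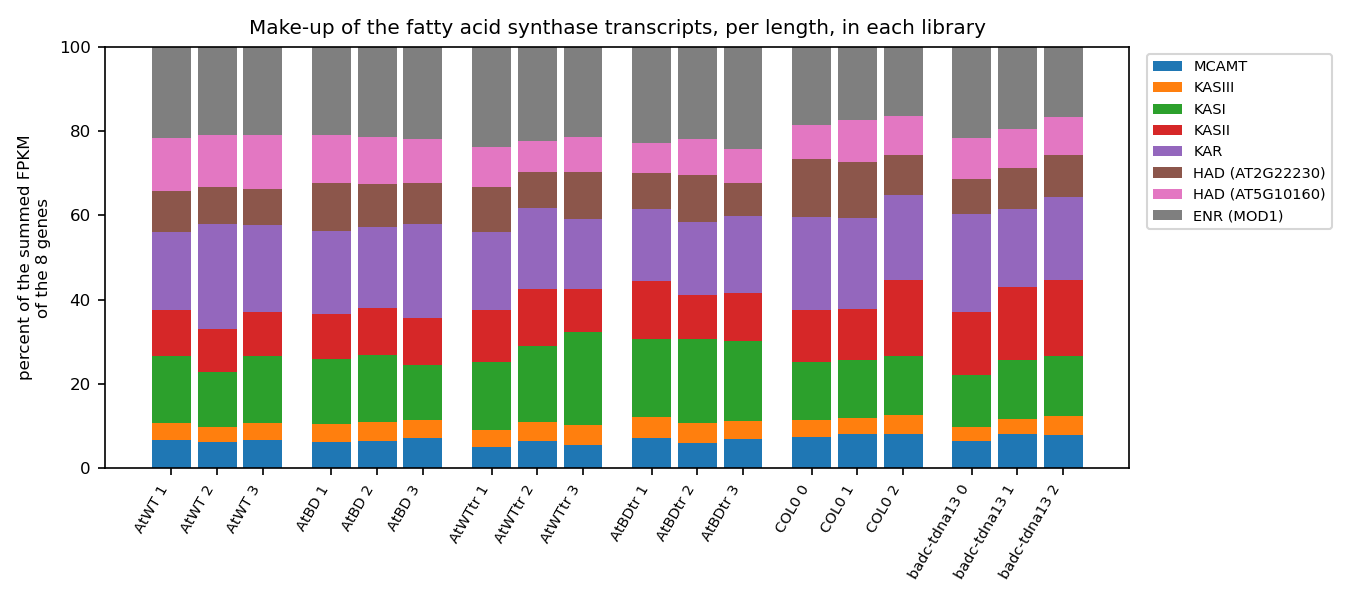
Stacked bars give each gene's part of the summed FPKM of the 8 genes, in percent, for each of the 18 libraries. MOD1 and KAR take the widest bands in most libraries, KASIII takes the narrowest in every one, and the bands of KASI and KASII change places in size between the second set and badc-tdna13.

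MCAMT (AT2G30200, TAIR10.1 chr2:12882948-12885776, minus strand, 10 exons, 393 residues) supplies the malonyl-ACP used in every condensation. Its levels were 100.1, 94.9 and 90.4 CPM in AtWT and 103, 102 and 104 CPM in AtBD. All 3 AtBD libraries were above all 3 AtWT libraries, by a small margin, and MCAMT was the only member whose AtBD and AtWT libraries did not overlap, where 8.79% of all genes tested were higher in AtBD without overlap. The tr groups had 97.7, 71.3 and 93.8 CPM (AtWTtr) and 71.2, 87.5 and 120.0 CPM (AtBDtr), and each overlapped the group of its own genotype. In the first set MCAMT had 112, 124 and 81.6 CPM in COL0 and 76.2, 83.1 and 81.6 CPM in badc-tdna13, so that COL0 replicates 0 and 1 were above all other libraries.

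KASIII (AT1G62640, chr1:23192146-23195103, plus strand, 9 exons, 404 residues) starts the chain and had the lowest level per length. It had 71.8, 62.5 and 63.8 CPM in AtWT, 80.3, 77.7 and 70.6 CPM in AtBD, 84.2, 59.9 and 96.2 CPM in AtWTtr and 53.8, 80.3 and 89.4 CPM in AtBDtr. The AtBD range began just below the highest AtWT library, and the tr groups spanned both. In the first set its levels were 72.5, 76.3 and 61.8 CPM in COL0 and 44.0, 49.7 and 61.7 CPM in badc-tdna13, and badc-tdna13 replicates 0 and 1 were the lowest libraries.

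KASI (AT5G46290, chr5:18774056-18776839, minus strand, 8 exons, 489 residues), the condensing enzyme of the middle cycles, had 292, 241 and 261 CPM in AtWT and 308, 302 and 236 CPM in AtBD, with full overlap. Levels in the tr groups were 379, 245 and 458 CPM in AtWTtr and 221, 361 and 406 CPM in AtBDtr, so that 2 of 3 libraries of each group were above every AtWT and AtBD library and the remaining one was not. The first set held 287, 304 and 214 CPM in COL0 and 184, 196 and 214 CPM in badc-tdna13.

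KASII (AT1G74960, chr1:28151920-28156350, minus strand, 15 exons, 541 residues), which makes stearoyl-ACP, had 258, 249 and 220.4 CPM in AtWT, 272, 274 and 258 CPM in AtBD, 369, 238 and 277 CPM in AtWTtr and 212, 240.2 and 316 CPM in AtBDtr. All 4 groups overlapped. In COL0 its levels were 296, 329.7 and 308 CPM and in badc-tdna13 255, 305 and 308 CPM, and it was the 1 member for which COL0 replicates 0 and 1 were not both above badc-tdna13 replicates 0 and 1. KASI and KASII share 54.8% of the aligned protein residues, and their coding sequences have no identical run longer than 20 bases.

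Within a library, the ratio of KASI to KASII is free of scaling between libraries. In FPKM it was 1.46, 1.25 and 1.53 in AtWT, 1.47, 1.43 and 1.19 in AtBD, 1.33, 1.33 and 2.14 in AtWTtr and 1.35, 1.95 and 1.66 in AtBDtr, so that KASI was above KASII in all 12 libraries of the second set. The authors' FPKM in the first set gave 1.13, 1.13 and 0.780 in COL0 and 0.814, 0.789 and 0.787 in badc-tdna13, and the 2 COL0 libraries that are not duplicated were above both such badc-tdna13 libraries. This ratio and that of the HAD genes were chosen after their values were seen and are given with no test.

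KAR (AT1G24360, chr1:8640582-8643503, plus strand, 11 exons, 319 residues), the first reductase of each cycle, had 234, 318 and 235 CPM in AtWT and 272, 249 and 271 CPM in AtBD. The AtWT values held both the lowest and the highest of these 6 libraries. The tr groups had 296, 179 and 237 CPM (AtWTtr) and 139, 213 and 266 CPM (AtBDtr), again overlapping. First-set levels were 296, 343 and 191 CPM in COL0 and 221, 203 and 191 CPM in badc-tdna13. KAR overlaps AT1G24350 on the opposite strand by 244 bases, and the counts do not use strand. That neighbour had mean levels of 3.69 to 7.36 CPM in the 4 groups of the second set. Ambiguous reads were left out of the counts, so the level of KAR may be too low. By how much was not worked out.

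The dehydratase step is the only one with 2 genes in the set. HAD AT2G22230 (chr2:9449930-9451623, plus strand, 4 exons, 220 residues) and HAD AT5G10160 (chr5:3185734-3187312, plus strand, 4 exons, 219 residues) encode proteins that share 72.6% of 219 aligned residues. The longest run that their coding sequences share is 17 bases. How well reads of the pair can be told apart was not tested. The run is shown here in capitals inside a window of 60 coding bases. The window covers positions 262 to 321 of AT2G22230 and 259 to 318 of AT5G10160, counted from the start codon (RefSeq annotation of TAIR10.1):
HAD AT2G22230: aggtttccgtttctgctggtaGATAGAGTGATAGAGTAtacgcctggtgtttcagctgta
HAD AT5G10160: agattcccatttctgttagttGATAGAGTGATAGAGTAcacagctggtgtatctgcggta
Each gene also overlaps a gene on the opposite strand at its end. AT2G22230 shares 19 bases with MIPS2, which had mean levels of 108 to 220.0 CPM in the second set, and AT5G10160 shares 36 bases with MIPS3, which had 0.254 to 4.30 CPM.

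HAD AT2G22230 had 85.8, 77.5 and 64.8 CPM in AtWT, 106, 89.8 and 82.6 CPM in AtBD, 118, 55.7 and 110.0 CPM in AtWTtr and 48.8, 95.5 and 79.0 CPM in AtBDtr. The lowest library was AtBDtr replicate 1 and the highest AtWTtr replicate 1, and all 4 groups overlapped. In the first set it had 126, 136 and 64.8 CPM in COL0 and 63.6, 56.5 and 64.8 CPM in badc-tdna13, with COL0 replicates 0 and 1 far above the other 4 libraries.

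HAD AT5G10160 had 100.2, 98.4 and 91.4 CPM in AtWT and 99.6, 93.1 and 80.7 CPM in AtBD. Its tr levels were 96.4, 42.9 and 75.9 CPM in AtWTtr and 36.1, 66.0 and 76.0 CPM in AtBDtr. All AtBDtr libraries lay below all AtBD libraries, while AtWTtr replicate 1 reached the AtWT range. COL0 held 75.6, 96.1 and 60.5 CPM and badc-tdna13 69.8, 56.6 and 60.5 CPM, and here the groups were closer than for AT2G22230.

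The balance of the HAD pair differed between the groups. The ratio of AT2G22230 to AT5G10160 in FPKM was 0.792, 0.729 and 0.656 in AtWT and 0.988, 0.892 and 0.947 in AtBD, without overlap, and 1.13, 1.20 and 1.34 in AtWTtr and 1.25, 1.34 and 0.961 in AtBDtr. AT5G10160 was thus the higher gene of the pair in all 6 AtWT and AtBD libraries, and AT2G22230 in 5 of the 6 tr libraries. In the first set the ratio was 1.67, 1.37 and 1.06 in COL0 and 0.838, 1.04 and 1.08 in badc-tdna13. Mutant libraries thus had the higher ratio in AtBD against AtWT and the lower one in badc-tdna13 against COL0 once the duplicated pair is set aside.

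**Figure D2:**
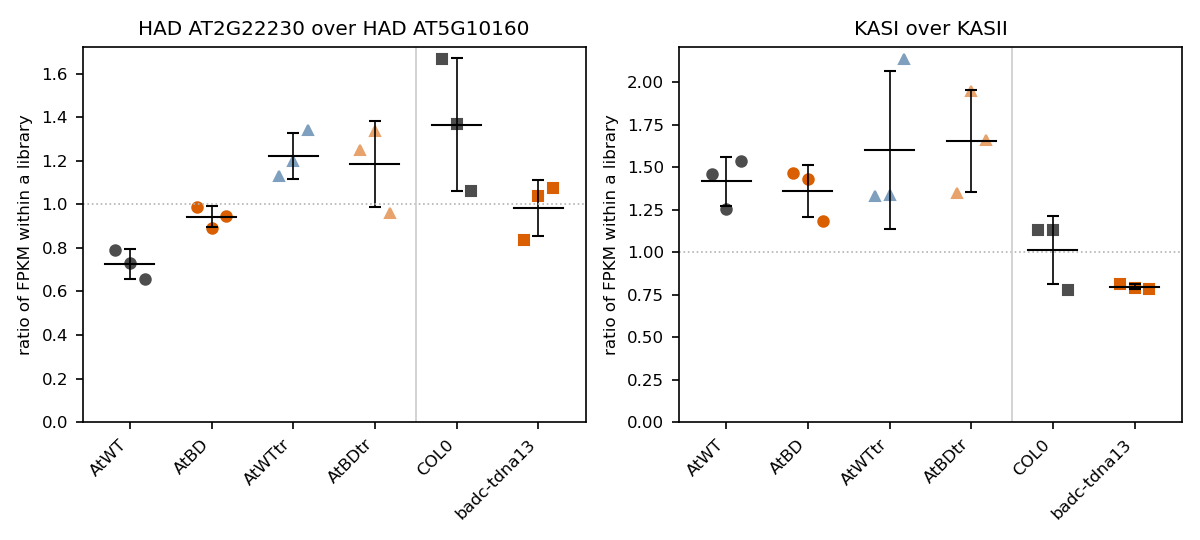
Points give, for each library, the within-library ratio of FPKM between the HAD genes AT2G22230 and AT5G10160 (left) and between KASI and KASII (right), with lines for the mean and SD of 3 libraries and a dotted line at a ratio of 1. The HAD ratio is below 1 in all AtWT and AtBD libraries and above 1 in all AtWTtr libraries, and the KASI to KASII ratio is below 1 in all badc-tdna13 libraries and in COL0 replicate 2.

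MOD1 (AT2G05990, chr2:2322215-2325197, plus strand, 12 exons, 390 residues), the enoyl reductase that completes each cycle, had 327, 322 and 285 CPM in AtWT and 342, 332 and 321 CPM in AtBD. Levels were 454, 251 and 368 CPM in AtWTtr and 224, 325 and 425 CPM in AtBDtr, where single libraries lay far below and far above the narrow range of AtWT and AtBD. The first set had 298, 326 and 203 CPM in COL0 and 246, 229 and 203 CPM in badc-tdna13.

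**Figure D3:**
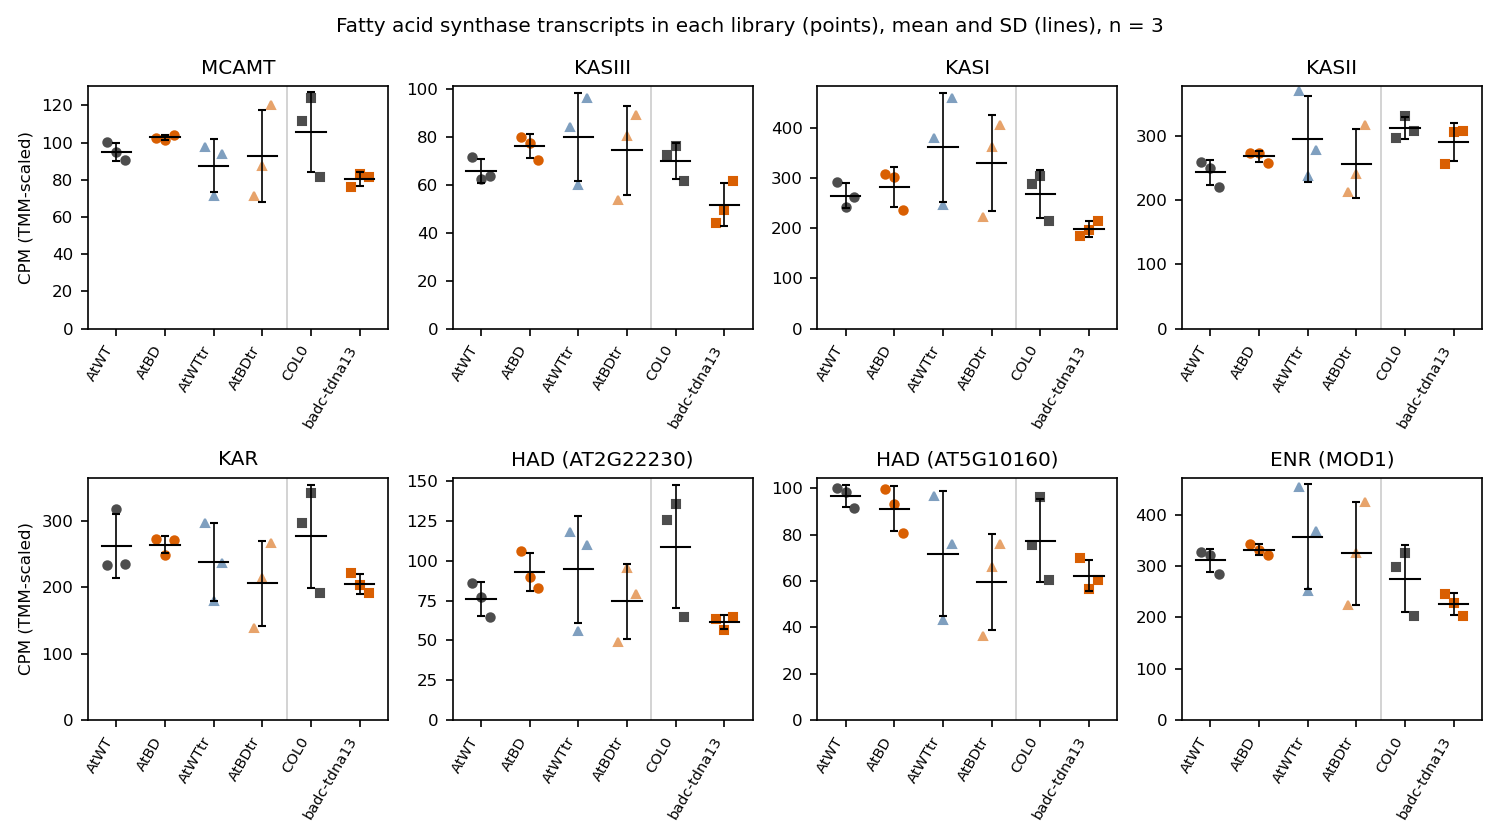
Each panel gives the TMM-scaled CPM of 1 gene in all 18 libraries as points, with the mean and SD of each group of 3 as lines, and a grey line separates the second set (left) from the first. The tr groups spread more widely than AtWT and AtBD in every panel, and COL0 replicate 2 sits at the level of badc-tdna13 replicate 2, whose fragments are identical.

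The comparison of AtBD with AtWT asks how loss of BADC1 and BADC3 altered seed transcripts. Of the 8 members, 0 changed by edgeR's quasi-likelihood test with Benjamini-Hochberg adjustment, where 0.0619% of 19376 genes tested passed (12 genes; 1181 had an unadjusted p under 0.05, and DESeq2 called 73 genes and 0 members). The members' log2 fold changes ran from -0.085 for HAD AT5G10160 to 0.29 for HAD AT2G22230 (SE 0.27 and 0.27), with a median of 0.10 beside 0.00 for all genes. Of the 8, 7 were positive and the adjusted p was 0.997 to 0.999. The 95% intervals over the 8 genes reached from -0.62 (HAD AT5G10160) to 0.82 (HAD AT2G22230) on the log2 scale. These bounds are not a detection limit, and the smallest difference that the test would call was not worked out. For MCAMT, the member without overlap, the log2 value was 0.11 (SE 0.20, adjusted p = 0.997, interval -0.28 to 0.50). In bulk seeds, less RNA per cell and fewer cells of a type cannot be told apart. The summed level of 4 seed coat genes was lower in each AtBD library (463, 481 and 259 CPM) than in each AtWT library (899, 584 and 775 CPM), with 0 of 4 past the test. That of 6 storage and oil body genes was higher in each AtBD library (111581, 105240 and 88235 CPM) than in each AtWT library (73850, 80504 and 66945 CPM). Of these 6 genes 0 passed the test. The part of these markers in the members' values was not tested.

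In the tr libraries the genotype comparison, AtBDtr against AtWTtr, again had 0 of 8 members past the test, where 0.0516% of all genes passed (10 genes; 986 unadjusted; 21 with DESeq2, with 0 members). Log2 fold changes were -0.34 (HAD AT2G22230, SE 0.27) to 0.085 (MCAMT, SE 0.20), 7 of them negative, with a median of -0.17 beside 0.011 for all genes and adjusted p of 0.982 to 0.991. The groups overlapped for all 8 members. AtWTtr replicate 2 was the lowest AtWTtr library for each of the 8 genes, and AtBDtr replicate 1 the lowest AtBDtr library for each. The same libraries had the highest summed level of 4 late maturation genes in their groups, 149.9, 1012 and 571 CPM in AtWTtr replicates 1, 2 and 3 and 2375, 564 and 182 CPM in AtBDtr, against 27.0 to 42.9 CPM in AtWT and AtBD; whether this bears on the members was not tested.

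The tr libraries were compared with the other libraries of the same genotype, a contrast whose meaning the labels leave unstated. AtWTtr against AtWT had 0 of 8 members past the test although 34.1% of all genes tested passed it, and AtBDtr against AtBD had 0 of 8 where 29.7% passed. In wild type the members' log2 fold changes ran from -0.43 (HAD AT5G10160, SE 0.28, adjusted p = 0.246) to 0.45 (KASI, SE 0.25, adjusted p = 0.185), with a median of 0.24 beside -0.037 for all genes. In the mutant they ran from -0.62 (HAD AT5G10160, SE 0.28, adjusted p = 0.105) to 0.22 (KASI, SE 0.25, adjusted p = 0.537), with a median of -0.10 beside -0.026. HAD AT5G10160 in AtBDtr against AtBD was the 1 member without overlap in these contrasts, where 25.5% of all genes were lower in AtBDtr without overlap. Without AtBDtr replicate 3 it passed the test, at -0.86 (adjusted p = 0.0434), where 5475 of 20026 genes passed. Over all fits that left out 1 library its log2 value in this contrast ran from -0.86 to -0.38.

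These values depend on how libraries are scaled. As a share of all counts in a library, the 8 members took 0.217%, 0.197% and 0.200% in AtWT, 0.187%, 0.188% and 0.185% in AtBD, 0.163%, 0.0858% and 0.110% in AtWTtr and 0.0689%, 0.0978% and 0.163% in AtBDtr, so every tr library was below every other library of the set. After TMM scaling the members' summed level was 1468, 1463 and 1312 CPM in AtWT, 1584, 1518 and 1424 in AtBD, 1894, 1142 and 1716 in AtWTtr and 1006, 1469 and 1778 in AtBDtr, and the groups overlapped. With library totals alone, the median of all genes moved to -0.99 in AtWTtr against AtWT and -0.73 in AtBDtr against AtBD on the log2 scale. On that scale MCAMT, KASIII, KAR and HAD AT5G10160 passed the test as lower in AtWTtr (-1.07, -0.69, -1.07 and -1.36), of which KASIII lay above the median of all genes and the other 3 below it. In AtBDtr against AtBD 6 members passed as lower. Of all 19376 genes tested on that scale, in either direction, 10597 passed in AtWTtr against AtWT and 7807 in AtBDtr against AtBD.

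**Figure D4:**
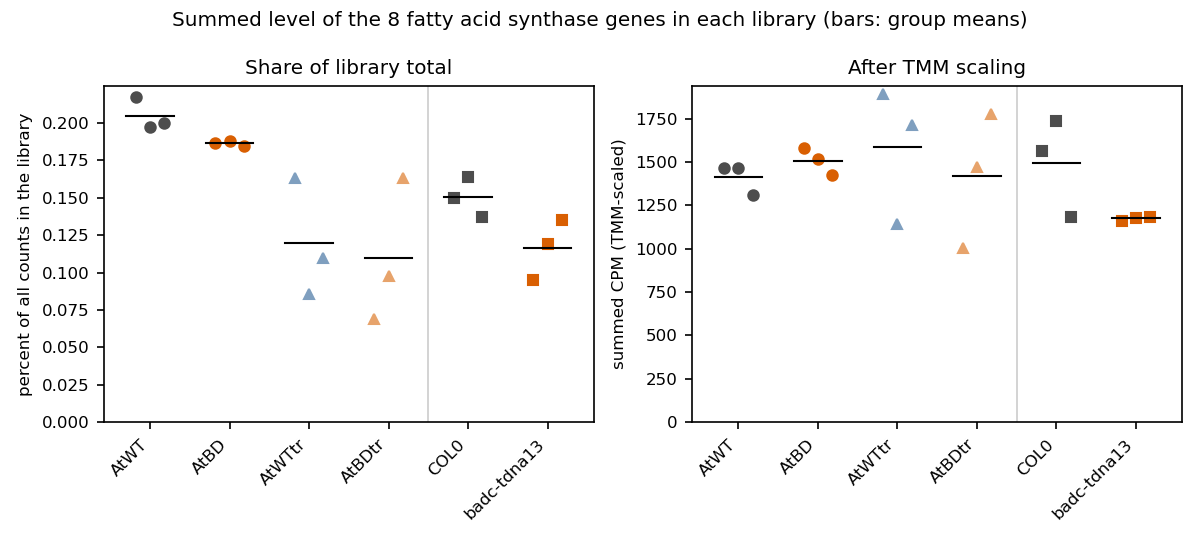
For each of the 18 libraries the summed level of the 8 genes is shown as a percent of all counts (left) and as TMM-scaled CPM (right), with bars for group means. In the second set the tr libraries lie below the others on the left, between 0.0689% and 0.163%, and overlap them on the right.

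Whether the tr contrast differed between genotypes was tested as an interaction, after the study's stated interest in translation efficiency. All 8 members had negative log2 values, from -0.026 (MCAMT, SE 0.28) to -0.63 (HAD AT2G22230, SE 0.38), with a median of -0.23 beside -0.012 for all genes. Of them 0 passed edgeR's quasi-likelihood test, where 0% of all genes passed (0 genes; 790 unadjusted; 4 with DESeq2, with 0 members), and 51% of all genes were negative. The second-set contrasts share their libraries, so their directions are not separate pieces of evidence.

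The first set addresses the same genotype question in COL0 and badc-tdna13. With all 6 libraries 0 of 8 members passed the test, where 0% of 18560 loci passed (0 loci; 973 unadjusted; 1 with DESeq2, with 0 members). Every member had a negative log2 fold change, from -0.10 (KASII, SE 0.20) to -0.82 (HAD AT2G22230, SE 0.29), with a median of -0.41 beside 0.014 for all loci and adjusted p of 0.818 to 0.914. Both groups hold the same fragments in their replicate 2.

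Without the 2 identical libraries (n = 2 in each group), HAD AT2G22230 and KASIII were lower in badc-tdna13. HAD AT2G22230 fell from 131 ± 7.13 to 60.1 ± 5.03 CPM, -1.14 on the log2 scale (SE 0.15, adjusted p = 0.0112 by edgeR's quasi-likelihood test). KASIII fell from 74.4 ± 2.70 to 46.8 ± 3.98 CPM, -0.68 on the log2 scale (SE 0.14, adjusted p = 0.0337). These are 2 of 8 members called lower, where 5.59% of 18522 loci were called lower and 11.4% in all. When only badc-tdna13 replicate 2 was left out, the library that goes against its label, 0 of 18818 loci were called. COL0 replicate 2, kept in that fit, had 64.8 CPM of HAD AT2G22230 and 61.8 CPM of KASIII. COL0 replicates 0 and 1 had 126 and 136 CPM of HAD AT2G22230 and 72.5 and 76.3 CPM of KASIII.

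The other members were also negative without passing the test. KASI stood at a log2 fold change of -0.65 (adjusted p = 0.0505), MCAMT -0.58 (0.0566), KAR -0.61 (0.0660), HAD AT5G10160 -0.46 (0.141), MOD1 -0.41 (0.145) and KASII -0.17 (0.558). The median over the 8 was -0.59 beside 0.00 for all loci. For 7 of 8 members, all but KASII, the libraries did not overlap, where 31.6% of all loci were lower without overlap.

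The number of members called rested on single libraries. Leaving out badc-tdna13 replicate 0 or replicate 1 from these 4 libraries gave 7 of 8 members called, with 7575 and 4926 loci called in all, and leaving out COL0 replicate 0 or replicate 1 gave 0 members, with 20 and 3 loci in all. The remaining library of a group is then assumed to vary like the other group. The summed level of 4 late maturation genes was 1238, 1232 and 536 CPM in COL0 replicates 0, 1 and 2 and 3311, 2268 and 536 CPM in badc-tdna13, with 2 of 4 called higher without the identical libraries. That of 4 seed coat genes was 519.6, 531 and 433 CPM in COL0 and 654, 751 and 433 CPM in badc-tdna13, with 1 called higher and 2 lower in the same fit. That of 4 silique wall genes was 107, 97.8 and 133 and 84.7, 107 and 133 CPM, with 1 called higher and 1 lower. The part of these markers in the members' values was not tested.

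**Figure D5:**
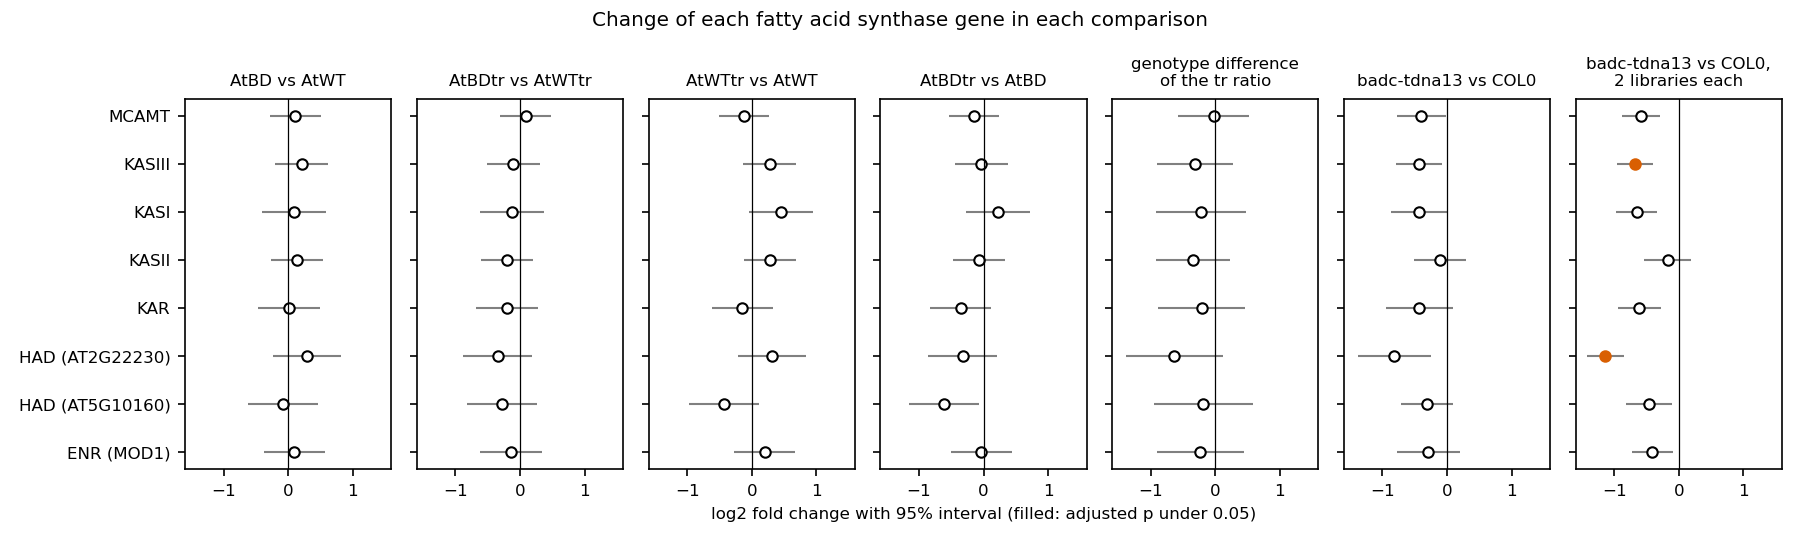
Points give the log2 fold change of each of the 8 genes in each of 7 fits, filled where the adjusted p is under 0.05. Lines give the 95% interval by a normal approximation, which is narrower than the test implies. The intervals cross 0 for nearly all genes in the second set, and HAD AT2G22230 and KASIII are the filled points, in badc-tdna13 against COL0 with 2 libraries in each group.

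The steps before and after the synthase were read from fixed lists of pathway genes. In AtBD against AtWT, 2 of 8 genes of the plastid acetyl-CoA carboxylase list passed the test, the mutated BADC1 and BADC3, and 0 passed in the lists of plastid pyruvate dehydrogenase (7 genes), acyl carrier proteins (5), stearoyl-ACP desaturases (7), and acyl-ACP thioesterases with export (5). The stearoyl-ACP desaturase FAB2 (AT2G43710), which introduces the first double bond after KASII, had 356, 390.1 and 331 CPM in AtWT and 517, 499 and 558 CPM in AtBD. These do not overlap, but the log2 fold change of 0.55 (SE 0.19) had an adjusted p of 0.561. WRI1 (AT3G54320) had 142, 142 and 130.1 CPM in AtWT and 154, 155 and 169 CPM in AtBD, and its log2 fold change was 0.21 (SE 0.22, adjusted p = 0.997). In AtBDtr against AtWTtr the same 2 BADC genes were the only ones of these lists to pass.

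In the tr contrasts some genes of these lists passed the test while the 8 synthase genes had no call. The background is wide there, since 34.1% of all genes tested passed in AtWTtr against AtWT and 29.7% in AtBDtr against AtBD, and the shares of the lists below are counts to be read beside it. Of 5 acyl carrier protein genes 2 were higher in AtWTtr than in AtWT, ACP1 (AT3G05020) by 1.38 and ACP3 (AT1G54630) by 0.84 on the log2 scale (adjusted p = 0.000173 and 0.00386). The same 2 genes were higher in AtBDtr against AtBD, by 0.88 and 0.57 (adjusted p = 0.00637 and 0.0384). Of 7 desaturase genes 3 were higher in AtWTtr, FAB2 by 1.13, AT5G16240 by 0.74 and AT3G02630 by 0.74 (adjusted p = 0.000251, 0.00382 and 0.00678). In AtBDtr FAB2 was higher by 0.62 and FTM1 (AT1G43800) lower, at -2.46 (adjusted p = 0.0193 and 0.00286). Of 7 pyruvate dehydrogenase genes, which supply acetyl-CoA, the E3 subunit gene AT4G16155 was lower in both contrasts, at -0.85 and -0.73 (adjusted p = 0.0135 and 0.0342), and AT1G34430 was lower in AtBDtr, at -0.81 (adjusted p = 0.0297). Of the 4 WRINKLED factors, WRI1 stood at 0.17 and -0.13 without a call and AT2G41710 rose by 1.44 and 1.23 (adjusted p = 0.000366 and 0.00165). WRI3 (AT1G16060) was lower in both, at -2.20 and -2.78 (adjusted p = 0.000993 and 0.000213). All of these are values after TMM scaling, relative to the bulk of genes, and the shift of the median under library totals given above applies to them as well.

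Of 8 carboxylase genes 2 were higher in AtWTtr than in AtWT, the biotin carrier subunit BCCP2 (AT5G15530) at 0.77 and BADC2 (AT1G52670) at 0.69 (adjusted p = 0.0171 and 0.0420). The plastid-encoded carboxyltransferase gene accD was called lower in both contrasts from a very low level, with 0.581, 8.25 and 3.42 CPM in AtWT, 1.999, 3.88 and 2.74 in AtBD, 0, 0.231 and 0 in AtBDtr and 0 in all 3 AtWTtr libraries. Of 5 thioesterase and export genes, FATA1 (AT3G25110) was higher in AtWTtr (0.56, adjusted p = 0.0325) and LACS9 (AT1G77590) lower in AtBDtr (-1.04, adjusted p = 0.0318). Mitochondria make acyl chains by a separate set of enzymes, and of 6 such genes 2 were higher in AtWTtr, mtACP2 (AT1G65290) by 0.55 and AT2G04540 by 0.75 (adjusted p = 0.0469 and 0.0491), while 0 passed in AtBDtr. In the genotype comparisons 0 of these 6 genes passed in the second set and 0 of the 2 that were tested in the first.

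In the first set without the identical libraries, WRI1 was lower in badc-tdna13, with 171 and 187 CPM in COL0 and 66.8 and 50.4 CPM in badc-tdna13 (log2 fold change -1.63, SE 0.18, adjusted p = 0.00840), and it stood at -1.03 with all 6 libraries. Without the identical libraries 5.59% of all loci tested were called lower. Of 5 acyl carrier protein genes 2 were lower, ACP2 (AT1G54580) at -0.94 (adjusted p = 0.0452) and at -0.66 with all 6 libraries, and ACP3 at -0.87 (adjusted p = 0.0378) and at -0.61 with all 6 libraries. FAB2, the only desaturase gene tested there, was lower, at -1.001 (adjusted p = 0.0204) and at -0.72 with all 6 libraries. Of 3 thioesterase and export genes tested 2 were lower. The oleoyl-ACP thioesterase gene FATA1 stood at -1.06 (adjusted p = 0.0136) and at -0.74 with all 6 libraries, and the acyl-CoA synthetase gene LACS9 at -0.64 (adjusted p = 0.0471) and at -0.41 with all 6 libraries. Of 4 pyruvate dehydrogenase genes tested 1 was lower, the E2 subunit gene LTA2 (AT3G25860), at -0.65 (adjusted p = 0.0405) and at -0.44 with all 6 libraries. Of 7 carboxylase genes 3 were lower, the biotin carrier subunit gene BCCP1 (AT5G16390) at -0.60 (adjusted p = 0.0447) and at -0.39 with all 6 libraries, BADC2 at -0.97 (adjusted p = 0.0163) and at -0.70 with all 6 libraries, and BADC3 at -4.16 (adjusted p = 0.00623) and at -1.70 with all 6 libraries. In the fit of all 6 libraries each of these genes had an adjusted p of 0.818.

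In AtWT and AtBD no single library was the lowest or the highest of its group for all 8 genes. Over the 12 libraries of the second set, Pearson's r of log2 CPM between pairs of members ran from 0.312 (KASI with HAD AT5G10160) to 0.935 (KASI with KASIII), and that of their deviations from the group means from 0.663 to 0.988. These libraries share 4 groups and 1 scaling factor each, so the values are descriptions and carry no p. The spread behind them was unequal, with a coefficient of variation of 1.29% to 14.2% over the 8 genes in AtBD, 4.84% to 18.4% in AtWT, 16.2% to 37.6% in AtWTtr and 21.0% to 34.9% in AtBDtr. Among 12379 genes outside the set whose log2 CPM averaged 2 or more, those most like the mean of the members were PDH-E1 ALPHA (AT1G01090) with r = 0.974, AT1G71691, annotated as a GDSL-like lipase, with 0.962, IQD21 (AT3G49260) with 0.952, AT1G56190, annotated as a phosphoglycerate kinase, with 0.947, and AT1G25510, annotated as an aspartyl protease, with 0.945. Over the genes of the pathway lists, r with the members' mean ran from -0.370 to 0.974. The 7 pyruvate dehydrogenase genes had 0.368 to 0.974, the 8 carboxylase genes -0.00040 to 0.903, the 5 acyl carrier protein genes 0.00822 to 0.822 and the 7 desaturase genes -0.370 to 0.714, while WRI1 had 0.827.

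The windows of 250 bases before to 50 after the annotated start of each gene were searched on both strands for the AW-box, the letters bound by WRI1: CNTNG, 7 bases of any kind, and CG. Of the 8 members 1 held a match (12.5%), HAD AT2G22230, beside 11.9% of 27443 windows of nuclear protein-coding genes. The match lies on the plus strand at chr2:9449963-9449976 of TAIR10.1, centred 40 bases after the annotated start. As the only match among the members, it is shown with 8 bases on either side (chr2:9449955-9449984) and with its 5 fixed bases in capitals:
AW-box of HAD AT2G22230: acacaaacCtTtGtactctcCGctccttca
In the other lists a match was held by 3 of 7 pyruvate dehydrogenase genes, 2 of 5 acyl carrier protein genes, 1 of 5 thioesterase and export genes, 1 of 7 nuclear carboxylase genes, 0 of 7 desaturase genes, 0 of 6 mitochondrial genes and 0 of 4 WRINKLED factors. A match describes letters in this window and says nothing about binding.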

How the data were processed

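PolyA RNA of developing seeds was sequenced in 18 samples, grouped by their titles. Per the submitters' processing notes, TopHat, Cufflinks, Cuffdiff and the build TAIR10 were used, with no versions. The authors deposited estimated counts from Cuffdiff for the first set (fragments, 1633 of 199206 values not whole) and FPKM, each per locus and replicate. That table numbers its replicates 0, 1 and 2 while the titles carry letters, so libraries are named by group and number. Of 33201 loci 30231 had 1 identifier, and 725 were left out because theirs stands on several loci. The second set was deposited as raw counts of 33602 genes, equal to the unstranded column of per-library count files at every gene, although the kit is stranded per the labels. Reads in no gene were 3.17% to 24.0% of a library and ambiguous reads 0.741% to 1.57%, and neither entered library sizes or tests.

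Counts (fragments rounded) were tested with edgeR 4.0.16 under R 4.3.3: filterByExpr, TMM, quasi-likelihood test, Benjamini-Hochberg adjusted p under 0.05 over all genes tested, no fold minimum. A single model held the 12 libraries of the second set, with 1 coefficient per group, and another the 6 of the first. CPM use TMM-scaled totals. Values per length in the second set use exon lengths of the RefSeq annotation of TAIR10.1, and promoter and coding sequences were read from that genome (its gene models place the members, and identities were computed with Biopython 1.88). Alternatives were RLE scaling, DESeq2 1.42.0, other filters, log2(FPKM + 1) and log2(FPKM + 0.1) with limma 3.58.1, a replicate block, leaving out libraries, and, chosen after seeing the data, library totals. Simulated counts with 2-fold changes in 200 genes, and the same spread set for all genes, were run for 2 comparisons. In AtBD against AtWT 97.5% of the changes were recovered, and 7.58% of the calls were unchanged genes. In badc-tdna13 against COL0 with 6 simulated libraries these were 96% and 4%. The simulated libraries were drawn independently and held no identical pair. These 2 percentages therefore do not describe the first set as deposited, where both groups hold the same fragments in replicate 2. The tr contrasts and the fit without the identical libraries were not simulated.

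Named were all members, BADC1 and BADC3, WRI1, per pathway list and comparison up to 4 called genes with the smallest adjusted p, and the 5 genes most like the members. FAB2 in AtBD against AtWT was named after its values were seen. The members and all lists were chosen with earlier results of these data known.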

Additional observations from a re-analysis of the deposited data

How the results depend on the processing

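With all libraries and TMM scaling the count of members past the test was 0 in every comparison, and it was 0 in all 6 with RLE scaling, DESeq2 and no filter on low counts. It was also 0 where the other settings were run: the 1 CPM filter in the 5 comparisons of the second set, fits of only the libraries compared in 4 of these, the z-score of at least 2 in the interaction, and the FPKM fits with limma in the first set. Leaving out 1 library gave 0 to 1 members in AtBDtr against AtBD (1 without AtBDtr replicate 3, where 5475 of 20026 genes passed). In badc-tdna13 against COL0 it gave 0 members, and each such fit called 0 loci. Without the 2 identical libraries 2 members were called there, where 2107 of 18522 loci passed. Leaving out 1 more library after these gave 0 to 7 members, with 7 where either remaining badc-tdna13 library was left out. Such a fit holds 1 library in a group, so the spread of that group was not measured. The members' share of counts over nuclear genes only moved by less than 1 SD. KAR in AtBD against AtWT was -0.0091 with RLE scaling and -0.0091 with DESeq2. Leaving out 1 library changed signs as follows. In AtBD against AtWT these ranges were KAR -0.066 to 0.17. In AtBDtr against AtWTtr these ranges were MOD1 -0.39 to 0.076, MCAMT -0.15 to 0.25, KASIII -0.28 to 0.086, KASI -0.35 to 0.097 and KAR -0.43 to 0.022. In AtWTtr against AtWT these ranges were KAR -0.34 to 0.016 and MOD1 -0.0092 to 0.39. In AtBDtr against AtBD these ranges were KASIII -0.21 to 0.14, KASII -0.27 to 0.038 and MOD1 -0.30 to 0.16. In the interaction these ranges were MCAMT -0.27 to 0.13, HAD AT5G10160 -0.46 to 0.068 and KAR -0.45 to 0.0057.

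Scaling by library totals, chosen after seeing the data, gave 4 members called in AtWTtr against AtWT and 6 in AtBDtr against AtBD, all lower. Of 19376 genes tested, 10597 and 7807 passed in these comparisons. The median of all genes moved by the amounts given with the shares of counts (-0.23 in AtBD against AtWT and 0.23 for the interaction). The values that changed sign became, in AtBD against AtWT, -0.12 for MCAMT, -0.028 for KASIII, -0.15 for KASI, -0.086 for KASII, -0.21 for KAR and -0.13 for MOD1. In AtWTtr against AtWT they became -0.69 for KASIII, -0.52 for KASI, -0.65 for KASII, -0.63 for HAD AT2G22230 and -0.73 for MOD1. KASI became -0.45 in AtBDtr against AtBD. The interaction became 0.25 for MCAMT, 0.075 for KASI, 0.040 for KAR, 0.074 for HAD AT5G10160 and 0.033 for MOD1.

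The second set showed no pairing by replicate number, as same-numbered libraries deviated from their group means with correlations of -0.277 to 0.0936, with 0 of 12 pairs above 0.1. With the replicate number as a block 0 members were called in each of the 5 comparisons of that set, and it changed no call. The first set's numbers do not match its titles, so no paired fit was made there. With 3 libraries a group, or 2, these tests limit only the larger differences, and the tests of the first set rest on 4 distinct libraries beside the identical pair.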

Other observations

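The remaining marker lists describe the seeds and the tr libraries. The summed level of 4 seed maturation regulators was 106 to 145 CPM over the AtWT and AtBD libraries and 333 to 428 CPM over the tr libraries. ABI3 and FUS3 were called higher in both tr contrasts, LEC1 lower in both and LEC2 lower in AtWTtr, and ABI3 carried the rise of the sum, with 62.6 ± 15.2 CPM in AtWT and 291 ± 39.7 in AtWTtr, where LEC1 had 18.2 ± 0.722 and 0.849 ± 0.624 (SD, n = 3). The 4 silique wall genes summed to 35.3 to 60.8 CPM against 4.92 to 7.50 CPM, with 3 of 4 called lower in AtWTtr than in AtWT and 4 of 4 in AtBDtr than in AtBD. Of 3 endosperm genes 1 was called higher and 2 lower in both tr contrasts, and their sum, carried by the first, was 2316 to 4058 CPM against 5925 to 16288 CPM. The 4 genes of vegetative photosynthesis summed to 4033 to 6603 CPM against 1029 to 5610.2 CPM.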
